A study of Mus musculus with 2 samples.

Results

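Genes of B cells, of the lymphoid follicles they build and of antibody-secreting plasma cells were examined in colon mucosa with and without epithelial HIF-2α, the hypoxia-inducible transcription factor subunit encoded by Epas1. The set held 30 genes chosen by name (the B cell receptor, surface molecules, signalling proteins and factors of B cells, follicle genes and plasma cell genes), and 28 of them carried a single-gene probe set, 64 probe sets in all, of 18193 genes and 34945 probe sets in the comparison. The remaining Cd38 and Ighd had no probe set under their symbol in the annotation used and were not analysed here. Hif-2αΔIE mice lack Epas1 in the intestinal epithelium, a reading of the label from knowledge of this model since the labels do not spell it out; Hif-2αF/F mice carry the conditional allele without the deletion. All mice were C57BL/6, 6 to 8 weeks old per the sample labels and 7 weeks old per the design text, and received 3% dextran sulfate sodium (DSS), which injures the colonic mucosa, for 3 days before mucosal scrapings were taken. No group without DSS was analysed here, and the labels do not name the driver of the Cre recombinase. The design text counts 5 ΔIE and 6 F/F mice, yet each genotype has a single array, and the labels do not say if RNA was pooled. No test between genotypes was therefore possible, and every difference compares these 2 arrays.

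B cells carry a receptor made of membrane immunoglobulin and the signalling pair Igα and Igβ (Cd79a and Cd79b). In the colon they gather with follicular dendritic cells and helper T cells in lymphoid follicles and patches. Cells that mature there and switch to IgA settle in the lamina propria as plasma cells, which secrete IgA joined by the J chain, and epithelial cells carry it into the lumen through the polymeric immunoglobulin receptor, encoded by Pigr. On becoming a plasma cell, a B cell shuts down many surface and signalling genes and turns on Prdm1 and Xbp1, which drive antibody secretion.

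Expression is given on the log2 scale as made by RMA (robust multi-array averaging), differences are ΔIE minus F/F, and a fold is 2 raised to the size of a difference. A gene took its brightest probe set by the mean of both arrays. Genes whose higher value was under 6.11, the middle of the probe set means, were left out, and 11899 genes remained. Probe sets differ in brightness for a given amount of RNA, so levels are set only against the same probe set on the other array. As a check of the labels, the 4 control probe sets for Cre read 7.86 to 10.01 on the ΔIE array and 2.92 to 4.22 on the F/F array, while 41 other bacterial controls differed by -0.17 to 0.43. Epas1 read 11.77 on the ΔIE array and 11.90 on the F/F array by its brighter probe set, whose position relative to the deleted part was not determined here. The colon genes Muc2 and Car1 read 14.34 and 14.40 on the ΔIE array and 14.07 and 14.22 on the F/F array.

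The promoters of 5 members are shown. Those of Cd22, Blnk and Sdc1 were chosen because they hold a match to a motif named below. Those of Bank1 and Jchain, which hold none, were added. Bank1 and Cd22 were far lower on the ΔIE array, Blnk was not, and Jchain and Sdc1 belong to plasma cells. Each runs from 250 bases before to 50 after the annotated start, 5′ to 3′ on the gene's strand, from RefSeq on GRCm38.p6. Bank1 lies at chr3:136326017-136326316 (minus strand), Cd22 at chr7:30878979-30879278 (minus), Blnk at chr19:40994172-40994471 (minus), Jchain at chr5:88527848-88528147 (minus) and Sdc1 at chr12:8771146-8771445 (plus). Capitals mark matches to the octamer ATTTGCAT, the site of OCT2 (Pou2f2) and its coactivator OBF1 (Pou2af1), and to TCCCNNGGG, a form of the early B cell factor (Ebf1) motif, both searched on both strands.
Bank1: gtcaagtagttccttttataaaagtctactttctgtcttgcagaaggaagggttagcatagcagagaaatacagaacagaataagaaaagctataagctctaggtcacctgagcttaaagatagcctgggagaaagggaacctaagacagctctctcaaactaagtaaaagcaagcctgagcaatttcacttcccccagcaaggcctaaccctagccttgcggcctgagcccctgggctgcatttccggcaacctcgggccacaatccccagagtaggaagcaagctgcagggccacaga
Cd22: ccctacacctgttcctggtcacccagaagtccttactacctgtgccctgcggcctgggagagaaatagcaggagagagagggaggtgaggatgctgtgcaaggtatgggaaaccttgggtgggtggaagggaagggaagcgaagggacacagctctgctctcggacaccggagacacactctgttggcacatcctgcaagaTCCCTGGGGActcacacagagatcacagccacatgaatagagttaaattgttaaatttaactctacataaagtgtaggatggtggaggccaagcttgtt
Blnk: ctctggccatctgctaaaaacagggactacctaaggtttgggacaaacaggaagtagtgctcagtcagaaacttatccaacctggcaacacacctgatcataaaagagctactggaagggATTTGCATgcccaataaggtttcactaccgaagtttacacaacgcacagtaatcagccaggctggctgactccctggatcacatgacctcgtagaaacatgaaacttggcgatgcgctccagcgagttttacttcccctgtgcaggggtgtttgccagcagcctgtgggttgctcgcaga
Jchain: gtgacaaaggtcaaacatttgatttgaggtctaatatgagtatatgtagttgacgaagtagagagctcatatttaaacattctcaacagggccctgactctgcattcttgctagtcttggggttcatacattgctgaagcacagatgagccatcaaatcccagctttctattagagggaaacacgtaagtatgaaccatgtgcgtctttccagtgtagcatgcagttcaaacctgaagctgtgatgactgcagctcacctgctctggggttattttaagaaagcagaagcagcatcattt
Sdc1: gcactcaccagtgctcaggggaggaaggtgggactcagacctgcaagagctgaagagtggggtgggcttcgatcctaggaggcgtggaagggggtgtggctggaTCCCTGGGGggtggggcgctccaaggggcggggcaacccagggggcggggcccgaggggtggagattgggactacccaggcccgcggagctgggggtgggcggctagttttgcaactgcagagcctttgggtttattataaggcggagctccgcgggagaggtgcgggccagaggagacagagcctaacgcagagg

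The table held 28 promoters of 23 members. The octamer occurred in 1 of them, that of Blnk, where it begins 130 bases before the start; this is 3.57% of member promoters, against 1.74% of all 32851 promoters in the table. The early B cell factor motif occurred in 2, those of Cd22, where it begins 49 bases before the start and where matches on both strands overlap, and of Sdc1, 146 bases before it. That is 7.14% of member promoters and 6.56% of all. The exact letters of either motif were therefore rare in these windows, whichever way a member differed. The promoters of Ms4a1, Cd79b, Blk, Icos, Ighm and Igha were not analysed here.

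Most mature B cell genes were lower on the ΔIE array, by more than 2-fold, whereas plasma cell genes were lower by less and Pigr was not lower. Of the 26 members kept, 24 were below 0, against 46.5% of all genes kept. At least 2-fold lower were 16 (61.5%), against a background of 5.30% of all genes kept. None was 2-fold higher, against 1.15% of all genes. The median was -1.32, and 0.02 over all genes. The 17 mature B cell genes kept had a median of -1.67 with 14 at least 2-fold lower, and the 5 plasma cell genes a median of -0.46 with 0 past 2-fold, and the first median minus the second was -1.21. The ranges overlapped: Jchain, at -0.79, differed by more than Ebf1, Pax5 and Blnk. Cr2, Fcer2a, Siglecg, Fcrl1, Blk and Pax5 passed the filter only through the F/F array and so had to be lower. With both arrays at or above the filter, 11 of 20 members were at least 2-fold lower, against 4.28% of 11280 genes. Of the 11 mature B cell genes so filtered, 9 were at least 2-fold lower, and their median was -1.73. Fcrla and Pou2f2 stayed below the filter on both arrays. In a whole scraping, fewer cells of a type and less RNA per cell cannot be told apart.

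**Figure D1:**
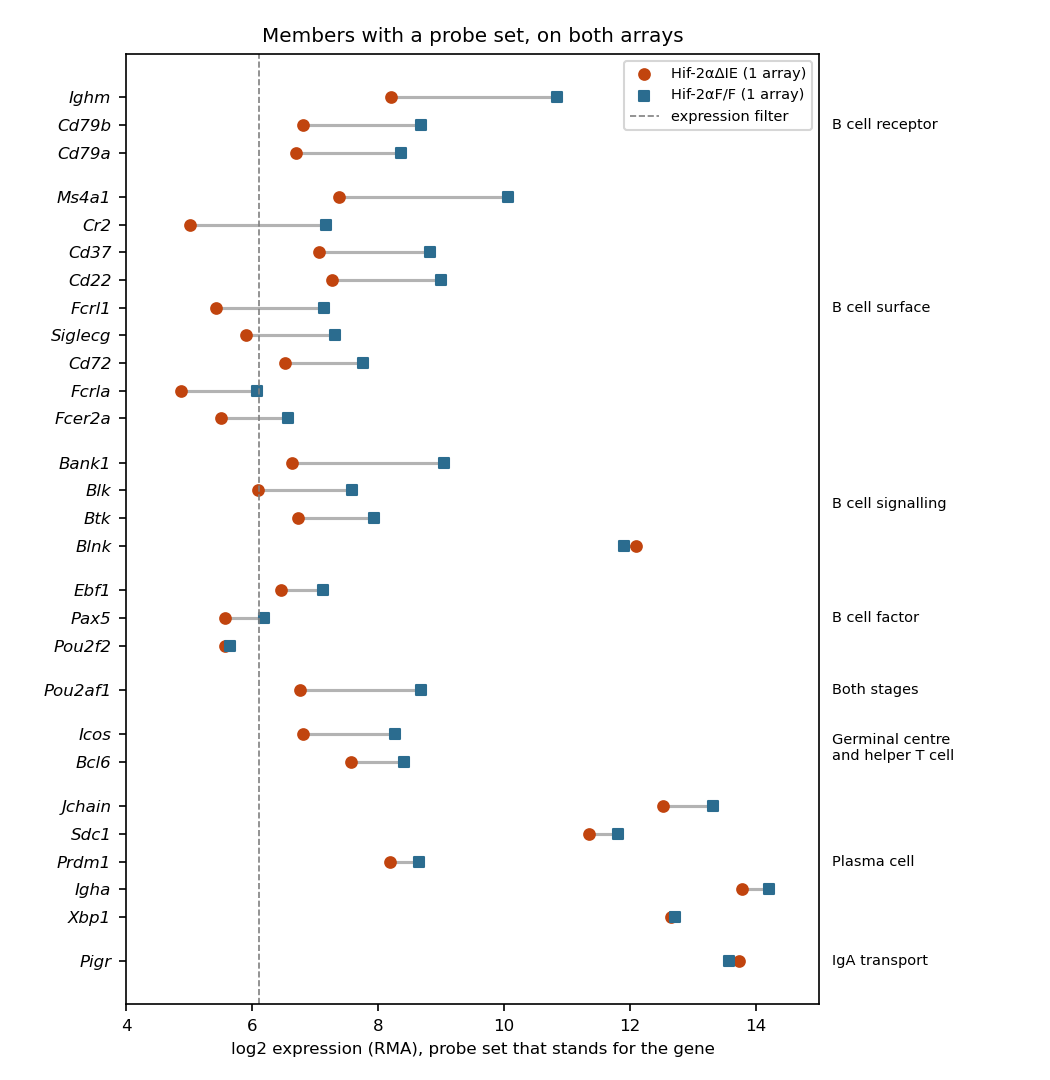
Log2 expression of the 28 members with a probe set on the ΔIE array (circles) and the F/F array (squares), 1 array each, grouped by role, with the expression filter (6.11) as a dashed line. The ΔIE value lies far to the left for receptor and surface genes and near the F/F value for plasma cell genes, Blnk and Pigr.

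The B cell receptor genes differed together. Cd79a read 6.70 on the ΔIE array and 8.37 on the F/F array, 3.18-fold lower in ΔIE. Cd79b read 6.80 on the ΔIE array and 8.69 on the F/F array, 3.69-fold lower. Each has 1 probe set, so neither can be checked within the arrays. Ighm, the heavy chain of IgM, read 8.21 on the ΔIE array and 10.85 on the F/F array by the probe set that stands for it (6.23-fold lower). Of its 6 probe sets at or above the filter on both arrays, 5 were at least 2-fold lower, against 3.38% of all probe sets so filtered.

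Among surface molecules, the 4 at or above the filter on both arrays, Ms4a1, Cd22, Cd37 and Cd72, were at least 2-fold lower, against 4.28% of genes so filtered. The other 4 kept passed the filter only through the F/F array. Ms4a1, which encodes the B cell marker CD20, read 7.38 on the ΔIE array and 10.06 on the F/F array, a 6.41-fold difference. Its second probe set read 4.59 on the ΔIE array, below the filter, and 6.98 on the F/F array. It had the largest difference of any member by the brightest probe set. Cd22, an inhibitory lectin that binds sialic acid, read 7.26 on the ΔIE array and 8.99 on the F/F array (3.32-fold lower). Cd37, a tetraspanin that other leukocytes also carry, read 7.06 on the ΔIE array and 8.82 on the F/F array (3.39-fold lower), and Cd72, a second inhibitory lectin, was 2.37-fold lower. The second probe set of Cd37 differed by -1.69, and that of Cd22 read 4.51 on the ΔIE array, below the filter, and 6.37 on the F/F array. Cr2, the complement receptor CD21 of mature B cells and follicular dendritic cells, read 5.02 on the ΔIE array and 7.17 on the F/F array. Fcrl1, an Fc receptor-like molecule of B cells, read 5.42 on the ΔIE array and 7.14 on the F/F array. Siglecg, a sialic acid-binding inhibitor of receptor signalling, read 5.91 on the ΔIE array and 7.31 on the F/F array. These receptors lay below the filter on the ΔIE array, where RMA gives no detection call, so no fold is given. Fcer2a, the low-affinity IgE receptor CD23, read 5.51 on the ΔIE array and 6.58 on the F/F array. Fcrla, an intracellular relative of the Fc receptors, read 4.87 on the ΔIE array and 6.07 on the F/F array, below the filter on both.

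The signalling proteins split. Bank1, a scaffold of B cell receptor signalling, read 6.64 on the ΔIE array and 9.04 on the F/F array, 5.27-fold lower. Blk, a Src family kinase of B cells, read 6.10 on the ΔIE array, just below the filter, and 7.58 on the F/F array. Btk, the kinase mutated in X-linked agammaglobulinaemia and also present in myeloid cells, was 2.31-fold lower at 6.73 on the ΔIE array and 7.93 on the F/F array. Blnk went the other way. This adaptor, which links the receptor to downstream enzymes, read 12.10 on the ΔIE array and 11.90 on the F/F array, a difference of 0.20, and it was the only mature B cell gene kept that was above 0. Blnk is known in macrophages too, and which cells gave its signal was not tested.

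The B cell factors differed less than the surface genes. Ebf1, which sets B cell fate and is also known in stromal and fat cells, read 6.46 on the ΔIE array and 7.12 on the F/F array, a difference of -0.66. Pax5, which maintains B cell identity, read 5.58 on the ΔIE array and 6.20 on the F/F array. Pou2f2, the gene of OCT2, read 5.57 on the ΔIE array and 5.65 on the F/F array, below the filter. Pax5 and Pou2f2 lay near or below the filter on both arrays, and the part of dim signal in their differences was not tested. Pou2af1, the gene of the OCT2 coactivator, which B cells and plasma cells both express, read 6.76 on the ΔIE array and 8.68 on the F/F array (3.78-fold lower). Of the germinal centre genes, Icos, the costimulatory receptor of follicular helper T cells, read 6.81 on the ΔIE array and 8.26 on the F/F array (2.74-fold lower), and its second probe set differed by -1.36. The dimmest probe set of Icos read 5.57 on the ΔIE array, below the filter, and 6.74 on the F/F array. Bcl6, the factor of germinal centre B cells and follicular helper T cells, read 7.58 on the ΔIE array and 8.41 on the F/F array, a difference of -0.83.

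Plasma cell genes were lower by less. Igha, the heavy chain of IgA, read 13.78 on the ΔIE array and 14.20 on the F/F array (1.34-fold lower), and its 3 probe sets ran from -0.67 to -0.42. Jchain, which joins IgA and IgM into polymers, read 12.53 on the ΔIE array and 13.32 on the F/F array (1.73-fold lower). Prdm1, the gene of the plasma cell factor BLIMP1, read 8.19 on the ΔIE array and 8.65 on the F/F array, a difference of -0.46. None of them passed 2-fold. Sdc1, the plasma cell marker CD138, read 11.35 on the ΔIE array and 11.82 on the F/F array, and Xbp1, the factor of the secretory programme, 12.64 on the ΔIE array and 12.71 on the F/F array. Epithelial cells also express Sdc1, Xbp1 and Prdm1; over Igha and Jchain alone the median was -0.61, and that of the mature B cell genes left when those known in other cells were set aside was -1.72. Pigr read 13.72 on the ΔIE array and 13.57 on the F/F array, and its 2 probe sets differed by 0.14 and 0.15. Differences near the top of the scale were narrower for all genes: of 449 genes with a mean of 12 or more, 9 were at least 2-fold lower, against 296 of 4252 genes (6.96%) with a mean from 6 to 8. Igha, Jchain and Xbp1 lay in the higher range and most mature B cell genes in the lower. Prdm1 and Sdc1, at -0.46 and -0.47, had means from 8 to 10 and from 10 to 12. In those ranges 4.63% and 2.61% of genes were at least 2-fold lower. The part of brightness in the different medians of mature B and plasma cell genes was not tested.

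**Figure D2:**
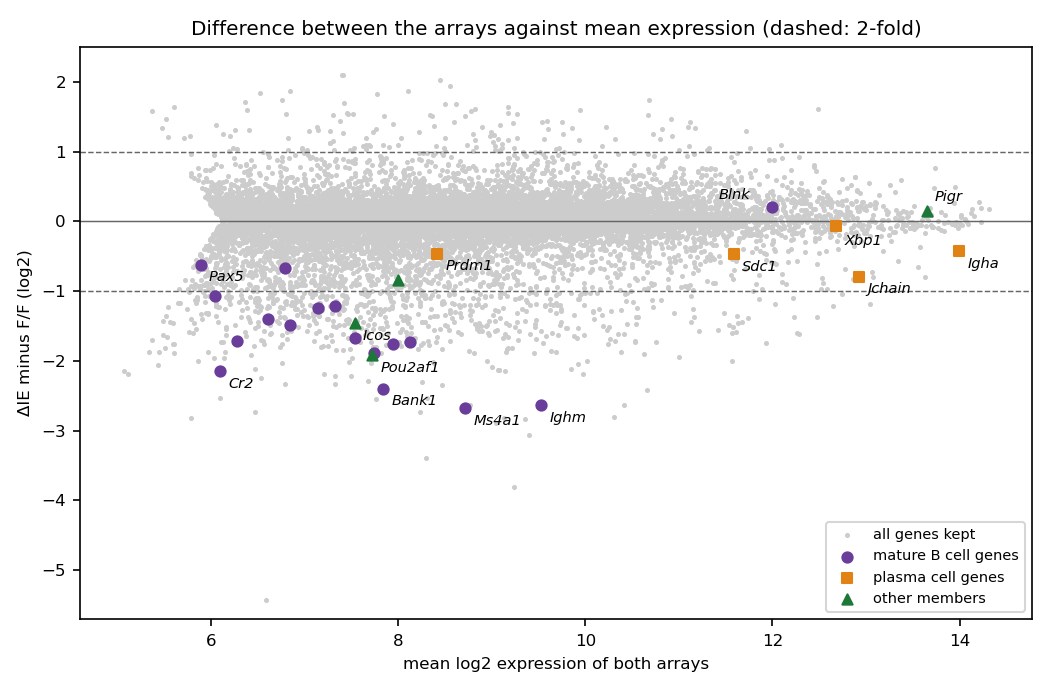
Difference between the arrays (ΔIE minus F/F, log2) against mean log2 expression for 11899 genes kept (grey), mature B cell genes (circles), plasma cell genes (squares) and other members (triangles), with dashed lines at 2-fold. Of 17 mature B cell genes 14 lie below the lower dashed line, against 5.30% of all genes kept. Of these 14, Cr2, Fcer2a, Siglecg, Fcrl1 and Blk passed the filter only through the F/F array and had to be lower. With both arrays at or above the filter, 9 of 11 lie below that line, against 4.28% of genes so filtered. The 5 plasma cell genes lie between that line and 0.

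Of the 64 member probe sets, 48 were kept, of which 26 were at least 2-fold lower, against 4.35% of all probe sets kept. Of the 48, 12 passed only through the F/F array and so had to be lower. The 36 at or above the filter on both arrays were therefore counted too. Of these 36, 33 were below 0, against 8352 of 18931 probe sets so filtered, and 17 at least 2-fold lower, against 3.38%. The spread was widest for Ighm, whose kept probe sets ran from -4.00 to -0.03. Its 6.23-fold difference therefore depends on the probe set: over all 11 the average was -1.19.

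**Figure D3:**
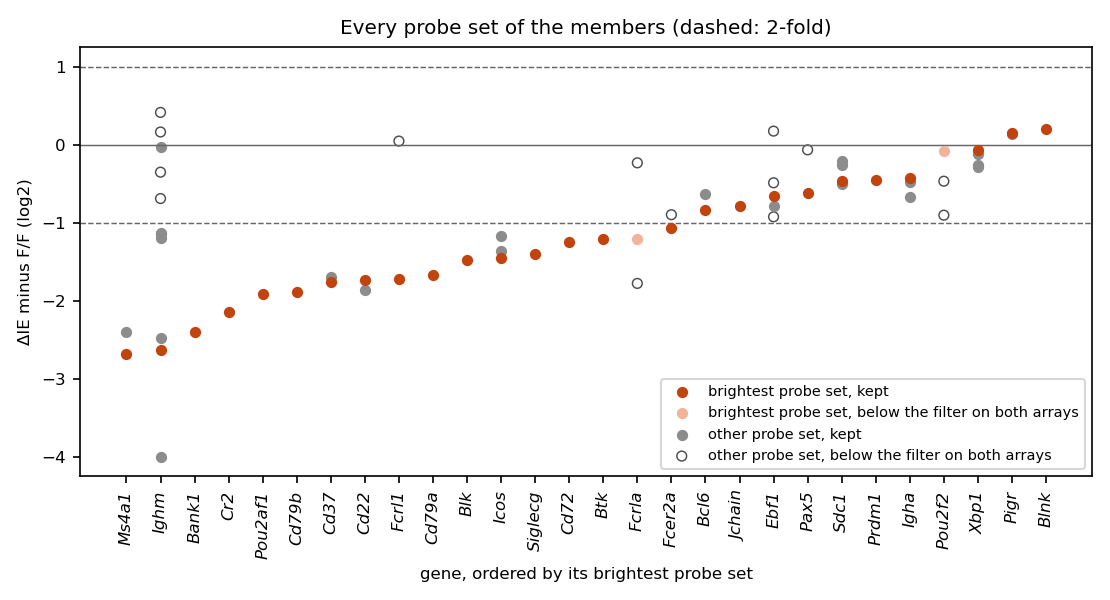
Difference (ΔIE minus F/F, log2) of each of the 64 member probe sets, by gene, with the probe set that stands for the gene in colour, other kept probe sets in grey and those below the filter open or pale. Probe sets of Ms4a1, Cd22, Cd37, Icos, Sdc1 and Xbp1 lie close together, and those of Ighm run from -4.00 to 0.41.

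The immunoglobulin loci were then compared by probe set, a grouping chosen after values were seen. Of the 25 probe sets kept that carried 1 immunoglobulin symbol, 4 passed the filter only through the F/F array and had to be lower. The 21 at or above it on both arrays were all below 0, against 8352 of 18931 probe sets so filtered. Of the 21, 13 were at least 2-fold lower, against 3.38%. Among the 21, the median was -1.81 over 6 probe sets of Ighm and -0.48 over 3 of Igha. Light chains, which IgM and IgA share, lay between -2.35 and -0.31. The 9 kappa probe sets among the 21 had a median of -1.20, and the 2 of Iglv1, a lambda gene, differed by -1.40 and -0.98. Within the kappa locus, Igkv6-14 read 7.54 on the ΔIE array and 9.27 on the F/F array, while Igkv8-30 read 11.69 on the ΔIE array and 12.59 on the F/F array. The heavy variable gene Ighv14-2 read 6.49 on the ΔIE array and 9.03 on the F/F array. Immunoglobulin probe sets can match several segments, so values under single segment names cannot be read as single transcripts.

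**Figure D4:**
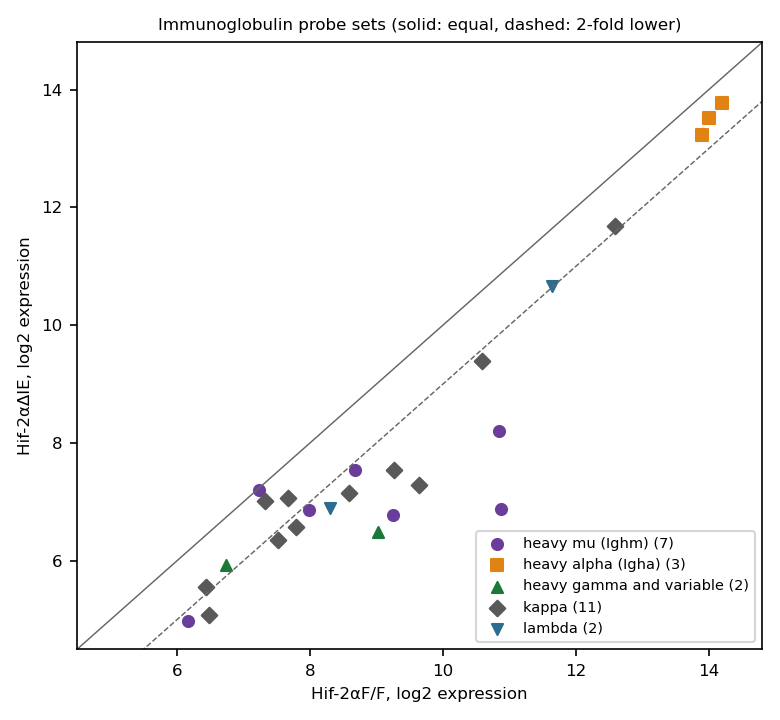
Log2 expression of the 25 kept probe sets with 1 immunoglobulin symbol on the ΔIE array (vertical axis) and the F/F array (horizontal axis), by locus; solid and dashed lines mark equal values and a 2-fold lower ΔIE value. The 3 Igha probe sets lie between the lines. Of the 7 Ighm probe sets, 6 lie below the dashed line, of which 1 passed the filter only through the F/F array.

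Other genes of these pathways were taken from lists chosen with earlier results of these data known. B cell identity and homing genes followed the mature B cell genes: the 27 kept had a median of -1.32, and 16 were at least 2-fold lower, against 5.30% of all genes. Of these 27, 8 passed the filter only through the F/F array and had to be lower; of the 19 at or above it on both arrays, 12 were at least 2-fold lower, against 4.28%. Fcmr, the IgM Fc receptor, read 6.53 on the ΔIE array and 8.82 on the F/F array (4.89-fold lower), and H2-Ob, a modulator of antigen loading in B cells, was 4.54-fold lower with a ΔIE value at the filter. Cxcr5, the receptor that guides B cells into follicles, read 4.67 on the ΔIE array and 6.55 on the F/F array. The chemokine receptor genes Cxcr4 and Ccr6 were 3.48-fold and 3.28-fold lower, and Ltb, a lymphotoxin subunit that maintains follicles, 3.19-fold lower. The 6 genes named had the largest differences of the 27, and 2 of the 27 were above 0. Most of those named are B cell surface molecules or receptors, but Cxcr4, Ccr6 and Ltb are known in other leukocytes.

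Genes of B cell receptor signalling that many leukocytes share differed less. Of 17 kept, 16 were below 0 and 3 at least 2-fold lower, against 46.5% and 5.30% of all genes kept. Of those 3, Lat2 was kept only through the F/F array. The median of the 17 was -0.51. Prkcb, protein kinase C beta, was 3.15-fold lower and Rasgrp3, an activator of Ras, 2.30-fold. Lat2, an adaptor, read 6.10 on the ΔIE array and 7.19 on the F/F array. Inpp5d (the phosphatase SHIP1), Plcg2 (phospholipase C gamma 2) and Sh3bp2 differed by -0.91, -0.88 and -0.72.

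Follicle stroma and organiser genes were also lower, with a median of -1.28 over 15 kept. Of the 13 at or above the filter on both arrays, 12 were below 0, against 5140 of 11280 genes so filtered. Of the 13, 8 were at least 2-fold lower, against 4.28%. Cxcl13, the chemokine of follicular stroma that binds CXCR5, read 9.67 on the ΔIE array and 11.39 on the F/F array (3.29-fold lower). Ccl20, the ligand of CCR6 made by epithelium over follicles and by inflamed epithelium, was 4.93-fold lower. Tnfsf11, the gene of RANKL, read 5.41 on the ΔIE array and 7.52 on the F/F array, and Glycam1, a product of high endothelial venules, 5.82 on the ΔIE array and 7.43 on the F/F array. Clu (clusterin), which follicular dendritic cells and other cells express, was 3.67-fold lower, and the adhesion molecule gene Icam1 2.64-fold. Several of these genes are not particular to follicles.

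Germinal centre genes were less informative, since 9 of the 20 with a probe set were below the filter on both arrays. Of the 11 kept, 1 passed the filter only through the F/F array and had to be lower. Of the 10 at or above it on both arrays, 8 were below 0, against 5140 of 11280 genes so filtered. Of the 10, 2 were at least 2-fold lower, against 4.28%. The median was -0.32 over the 11 and -0.27 over the 10. Basp1 and Mef2c, a factor of B cells and other cells, were 3.06-fold and 2.28-fold lower. Il21r, the gene kept only through the F/F array, read 6.04 on the ΔIE array and 6.78 on the F/F array, and Cd83 differed by -0.74. Gcnt3, which the mucus-making epithelium expresses, and Ung, a uracil glycosylase that also acts in class switching, differed by 0.75 and 0.61.

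Plasma cell secretion genes did not differ as a list. The 18 kept had a median of -0.03, with 10 below 0 and 8 above. Of the 18, 1 was at least 2-fold lower, near the share of 5.30% over all genes kept. That gene was Mzb1, a chaperone of immunoglobulin assembly in B and plasma cells, which read 8.16 on the ΔIE array and 9.79 on the F/F array (3.08-fold lower). Edem1 and Derl3, which act in the disposal of misfolded proteins, differed by -0.45 and -0.28, and Txndc5, Fkbp11 and Sec11c by 0.42, 0.35 and 0.30. Epithelial cells run the same secretory machinery, and 12 epithelial genes kept had a median of 0.07, with Krt20 at 0.30 and Muc2 at 0.28. The part of epithelial cells in the values of the secretion list was not tested.

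**Figure D5:**
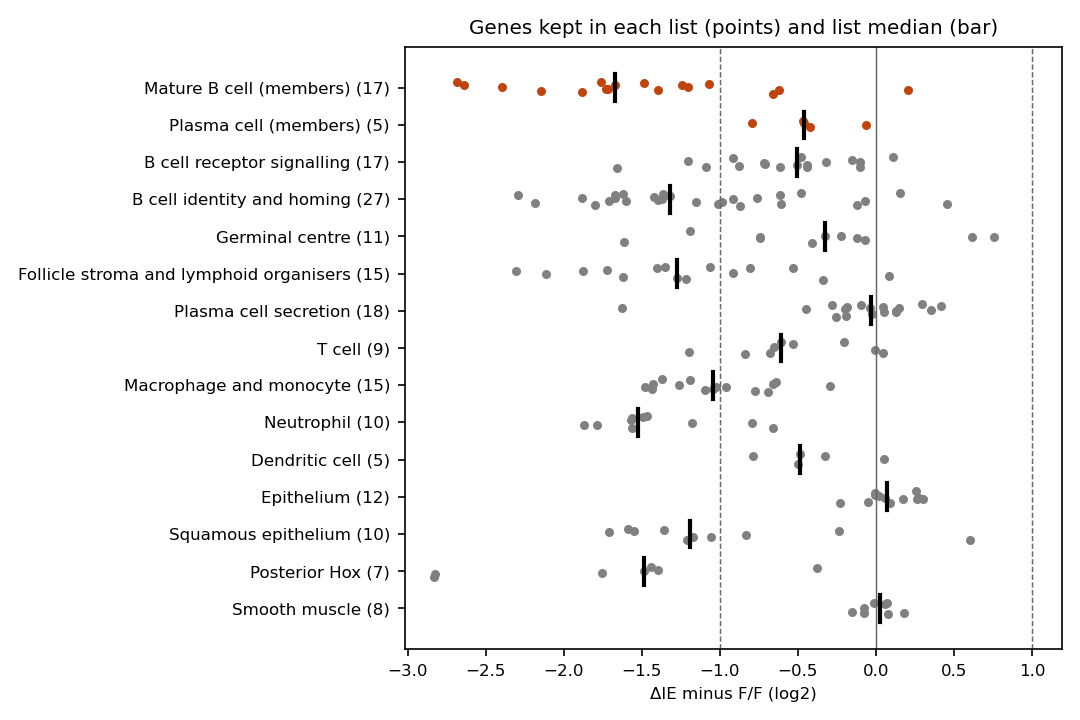
Difference (ΔIE minus F/F, log2) of each gene kept (points) and the median (bar) in the mature B and plasma cell members and in 13 further lists, with the number of genes in brackets and dashed lines at 2-fold. Identity and homing genes and follicle organisers have medians of -1.32 and -1.28, near the mature B cell members, while plasma cell secretion, epithelium and smooth muscle lie near 0.

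Markers of other cells differed on the same arrays. T cell genes had a median of -0.61 over 9 kept. Of these, 8 were below 0 and 1 at least 2-fold lower, against 46.5% and 5.30% of all genes kept. Thy1, Lat, Cd3g and Cd3d differed by -1.19, -0.68, -0.65 and -0.53. Ctla4 (5.60 on the ΔIE array and 6.44 on the F/F array) and Cd28 (5.95 on the ΔIE array and 6.56 on the F/F array) passed the filter only through the F/F array, and 7 of 16 T cell genes with a probe set did not pass it. Neutrophil, macrophage and squamous epithelium genes, with medians of -1.53, -1.04 and -1.19 over 10, 15 and 10 kept, were lower too. Of those at or above the filter on both arrays, 10 of 10, 14 of 14 and 8 of 8 were below 0, against 5140 of 11280 genes. At least 2-fold lower were 8, 8 and 6 of them, against 4.28%, so such differences were not particular to B cell genes. Dendritic cell genes had a median of -0.49 over 5, of which 2 passed the filter only through the F/F array and had to be lower. The 3 others had a median of -0.32. Smooth muscle genes had a median of 0.02 over 8. Posterior Hox genes, which mark the far end of the gut, had a median of -1.49 over 7, of which 3 passed the filter only through the F/F array; the 4 others were below 0, and Hoxb13 read 7.94 on the ΔIE array and 10.76 on the F/F array. Lymphoid follicles are unevenly spread along the colon, and the part of scraping position, of other leukocytes or of the deletion in the B cell differences was not tested. With 1 array per genotype they cannot be told apart.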

How the data were processed

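Expression was measured in colon mucosal scrapings on 2 arrays, 1 per genotype, grouped by the genotype label. The deposited table holds log2 expression of 45101 probe sets, made by the authors with RMA in the affy package, per the submitters' processing notes. Versions, and which arrays were normalized together: not given in the sources used here. RMA compresses differences of dim probe sets and gives no detection call. Precision is limited by having a single array for each genotype.

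Probe sets were named from GEO's annotation of the platform, which gave 1 symbol to 34958 probe sets; 64 control probe sets were left out. The brightest probe set stood for a gene, and 11899 of 18193 genes were kept. No test was run. Medians and counts at 2-fold were computed for the members, whose mature B list leaves out Pou2af1, Cd38, Bcl6, Icos and Pigr along with the plasma cell genes, and for 13 lists. Members and lists were chosen with earlier results of these data known. The text names all members and up to 6 genes of each list, those with the largest difference. Alternatives were other probe set rules, other filters, median and lowess centring (span 0.3), thresholds of 1.5-fold and 3-fold, list means and trimmed lists. The steps were tested on simulated data. Promoters came from RefSeq (GRCm38.p6). Tools were matplotlib 3.10.9, statsmodels 0.14.6, pandas 2.3.3 and numpy 2.4.6 under Python 3.11.15.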

Additional observations from a re-analysis of the deposited data

How the results depend on the processing

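The mature B cell median stayed between -1.86 and -1.48, the plasma cell median between -0.61 and -0.44, and their difference between -1.38 and -1.02 under the alternatives run for each. With the second brightest probe set, which 11 members have above the filter, the median of these 11 was -0.78 and 5 were at least 2-fold lower. These 5, Ighm, Ms4a1, Cd22, Cd37 and Icos, were at least 2-fold lower by the brightest probe set too. The other members kept have no second probe set above the filter, so this median and count cover fewer genes than the main ones. With a filter at the 75th percentile, 9 of 17 members were 2-fold lower, since fewer genes were kept. At a threshold of 3-fold, 10 of 26 were lower. The shares of all genes under these settings were not computed, so these counts have no background here. Averaging over probe sets took Fcer2a, Fcrl1, Pax5 and Ebf1 below the filter; Fcrl1 then differed by -0.84. Among members that stayed above it, Ighm moved by over 0.41, the 95th percentile of the gap between a gene's 2 brightest probe sets: to -1.19 as a mean over probe sets and to -4.00 both by its second brightest and without probe set IDs ending in _s_at or _x_at. No paired analysis was possible because each genotype has 1 array. No replicate could be left out for the same reason. Signal below the filter on the ΔIE array limits Cr2, Fcrl1, Fcer2a, Pax5, Siglecg and Blk, and signal below it on both arrays Fcrla and Pou2f2.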
